A study of Mus musculus with 16 samples.

Results

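The genes described here are 10 regulators of Notch signaling and of secretory cell fate in the intestinal epithelium: Atoh1, Spdef, Gfi1, Dll1, Dll4, Notch1, Hes1, Neurog3, Foxa1 and Foxa2. They were picked by name, and the reads of each were summed over its transcripts, which gave 10 of the 54123 genes in the summed tables. RNA was read in 16 libraries of mouse colon organoids, with 2 libraries in each of 8 groups. The groups combined proximal or distal colon, Scramble-sgRNA (control guide) or Cdx2-sgRNA (guide against the homeobox gene Cdx2), and WENR-plus or WENR-minus medium. WENR-plus holds the niche factors Wnt3a, EGF, Noggin and R-spondin-1, and WENR-minus lacks them. The organoids of all groups came from female mice aged 8 weeks that were heterozygous for a Cre-inducible BRAF V600E allele and for a tdTomato reporter, and no Cre treatment is given for these libraries. Every culture carried a lentiviral Cas9 construct. At 4 months of culture it spent 2 days in WENR-plus before 3 days in the final medium. According to the methods the 2 replicates of a group come from independent mice, and each Cdx2-sgRNA culture was expanded from 1 cell. Only cultures with frameshifts in both Cdx2 alleles were used, which the methods take as complete knockout. No single-cell step is described for the Scramble-sgRNA cultures, so an effect of the guide and of clonal outgrowth cannot be told apart.

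Notch signaling passes between neighboring cells. Ligands such as Dll1 and Dll4 on one cell bind receptors such as Notch1 on the next, the receptor is cleaved, and its intracellular part joins the DNA-binding protein Rbpj to switch on targets such as Hes1. In the intestine, Hes1 represses Atoh1, the factor that commits progenitors to the secretory lineage. Downstream of Atoh1, Gfi1 and Spdef act in goblet cell differentiation and Neurog3 starts the enteroendocrine lineage, while the forkhead factors Foxa1 and Foxa2 are active in endoderm-derived epithelium and in secretory differentiation.

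Promoter sequences are shown for the 4 members whose reads fell in both media in proximal Cdx2-sgRNA organoids and for Foxa1, which changed direction between media. They come from RefSeq on GRCm38.p6 and run from 250 bases before to 50 bases after the start site, 5′ to 3′ on the strand of the gene. Of the 10 members, 9 matched the table, with 13 promoters, and Hes1 did not. Capitals mark matches on either strand to the 7 motifs searched.
Atoh1, chr6:64728875-64729174, plus strand: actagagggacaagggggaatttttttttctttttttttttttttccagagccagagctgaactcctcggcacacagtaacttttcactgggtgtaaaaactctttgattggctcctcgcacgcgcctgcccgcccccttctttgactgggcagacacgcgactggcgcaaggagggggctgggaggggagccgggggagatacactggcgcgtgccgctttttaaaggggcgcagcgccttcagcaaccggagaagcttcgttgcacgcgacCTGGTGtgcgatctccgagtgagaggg
Spdef, chr17:27728902-27729201, minus strand: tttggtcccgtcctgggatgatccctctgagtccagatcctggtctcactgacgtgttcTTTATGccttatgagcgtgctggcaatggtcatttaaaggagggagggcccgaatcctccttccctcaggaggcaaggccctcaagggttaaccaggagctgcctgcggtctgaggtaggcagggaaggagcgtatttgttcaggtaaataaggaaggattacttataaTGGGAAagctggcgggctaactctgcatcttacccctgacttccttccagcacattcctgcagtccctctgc
Gfi1, chr5:107724294-107724593, minus strand: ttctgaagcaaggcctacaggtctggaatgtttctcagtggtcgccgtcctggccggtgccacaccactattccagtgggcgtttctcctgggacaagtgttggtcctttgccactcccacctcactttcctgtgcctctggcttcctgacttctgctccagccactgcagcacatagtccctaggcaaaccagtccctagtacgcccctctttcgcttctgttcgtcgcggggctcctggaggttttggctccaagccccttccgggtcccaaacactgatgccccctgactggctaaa
Neurog3, chr10:62132840-62133139, plus strand: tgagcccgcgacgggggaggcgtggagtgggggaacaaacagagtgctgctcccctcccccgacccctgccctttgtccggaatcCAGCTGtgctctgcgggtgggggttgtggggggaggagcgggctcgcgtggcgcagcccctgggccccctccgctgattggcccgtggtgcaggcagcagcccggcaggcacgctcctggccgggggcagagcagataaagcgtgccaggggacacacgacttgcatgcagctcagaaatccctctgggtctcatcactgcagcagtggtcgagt
Foxa1, chr12:57546062-57546361, minus strand: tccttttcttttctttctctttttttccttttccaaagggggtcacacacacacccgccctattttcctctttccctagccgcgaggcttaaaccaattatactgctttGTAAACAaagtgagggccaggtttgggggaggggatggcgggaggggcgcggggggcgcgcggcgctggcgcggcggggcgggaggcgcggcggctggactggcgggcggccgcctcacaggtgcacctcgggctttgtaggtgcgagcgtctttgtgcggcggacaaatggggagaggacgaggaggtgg
The Atoh1 window held 1 match to the N box CACNAG, a motif of Hes factors, on the minus strand from position 274, counted from the first base printed. The Spdef window held TTTATG, a form of the Cdx2 motif, from position 60 and the RBPJ core TGGGAA from position 229. The Neurog3 window held the E box CAGCTG from position 86, and the Foxa1 window held the forkhead motif TGTTTAC on the minus strand from position 110. The Gfi1 window belongs to the start of Gfi1-201, which took 80.4% of Gfi1 reads over all libraries, and none of the 7 motifs is spelled in it. Among all 32851 promoters of this length, 42.5% held CACNAG, 25.6% TGGGAA, 19.6% TTTATT, 17.2% the E box CAGATG, 16.3% CAGCTG, 11.9% TTTATG and 3.65% TGTTTAC. Of the 13 member promoters, 5, 1, 0, 0, 2, 1 and 1 held these motifs in that order. A match is a run of letters and was not tested as a binding site.

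Library totals ranged from 12465194 to 18922143 counts with a median of 16836530, and 15.4 to 28.0% of the counts came from mitochondrial ribosomal RNA. Levels are given as CPM, counts scaled to a common library size with TMM. Cdx2 itself (chromosome 5, 147300805 to 147307270) held 515 to 3269 reads. In proximal organoids its RNA was lower with Cdx2-sgRNA, by a log2 fold change of −1.29 (adjusted p = 0.000679, SE 0.20) in WENR-minus and −2.09 (adjusted p = 5.48e-05, SE 0.21) in WENR-plus. In distal organoids the values were −0.067 (adjusted p = 0.876, SE 0.20) and −0.36 (adjusted p = 0.857, SE 0.20). The distal guides overlapped in WENR-minus, with 112.4 and 110 CPM of Cdx2 with Scramble-sgRNA against 126.3 and 86.1 CPM, and in WENR-plus both Cdx2-sgRNA libraries (62.3 and 50.2 CPM) lay below both controls (76.8 and 67.9 CPM). Reads of a frameshifted transcript are counted like any other. Of 11 markers of non-epithelial cells, 2 passed the filter on low counts, and their summed level was 0.200 to 2.92 CPM in every group, while 5 epithelial markers summed to 3783 to 16430 CPM.

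All 10 members passed that filter, so each one enters every count given here. Scaled for transcript length, Foxa1 (25.0 to 89.6 TPM, the authors' length-scaled unit) and Hes1 (30.8 to 92.2 TPM) were well detected in every library. Atoh1 spanned 0.0868 to 39.5, Spdef 0.897 to 61.7 and Neurog3 0.0573 to 71.5 TPM. Foxa2 ranged from 1.70 to 30.1, Notch1 from 0.167 to 10.3, Dll1 from 0.397 to 7.10, Dll4 from 1.45 to 4.51 and Gfi1 from 0 to 3.47 TPM. The spread over libraries was thus far wider for Atoh1, Spdef, Gfi1, Neurog3 and Notch1 than for Foxa1, Hes1 or Dll4, with Dll1 and Foxa2 in between.

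**Figure D1:**
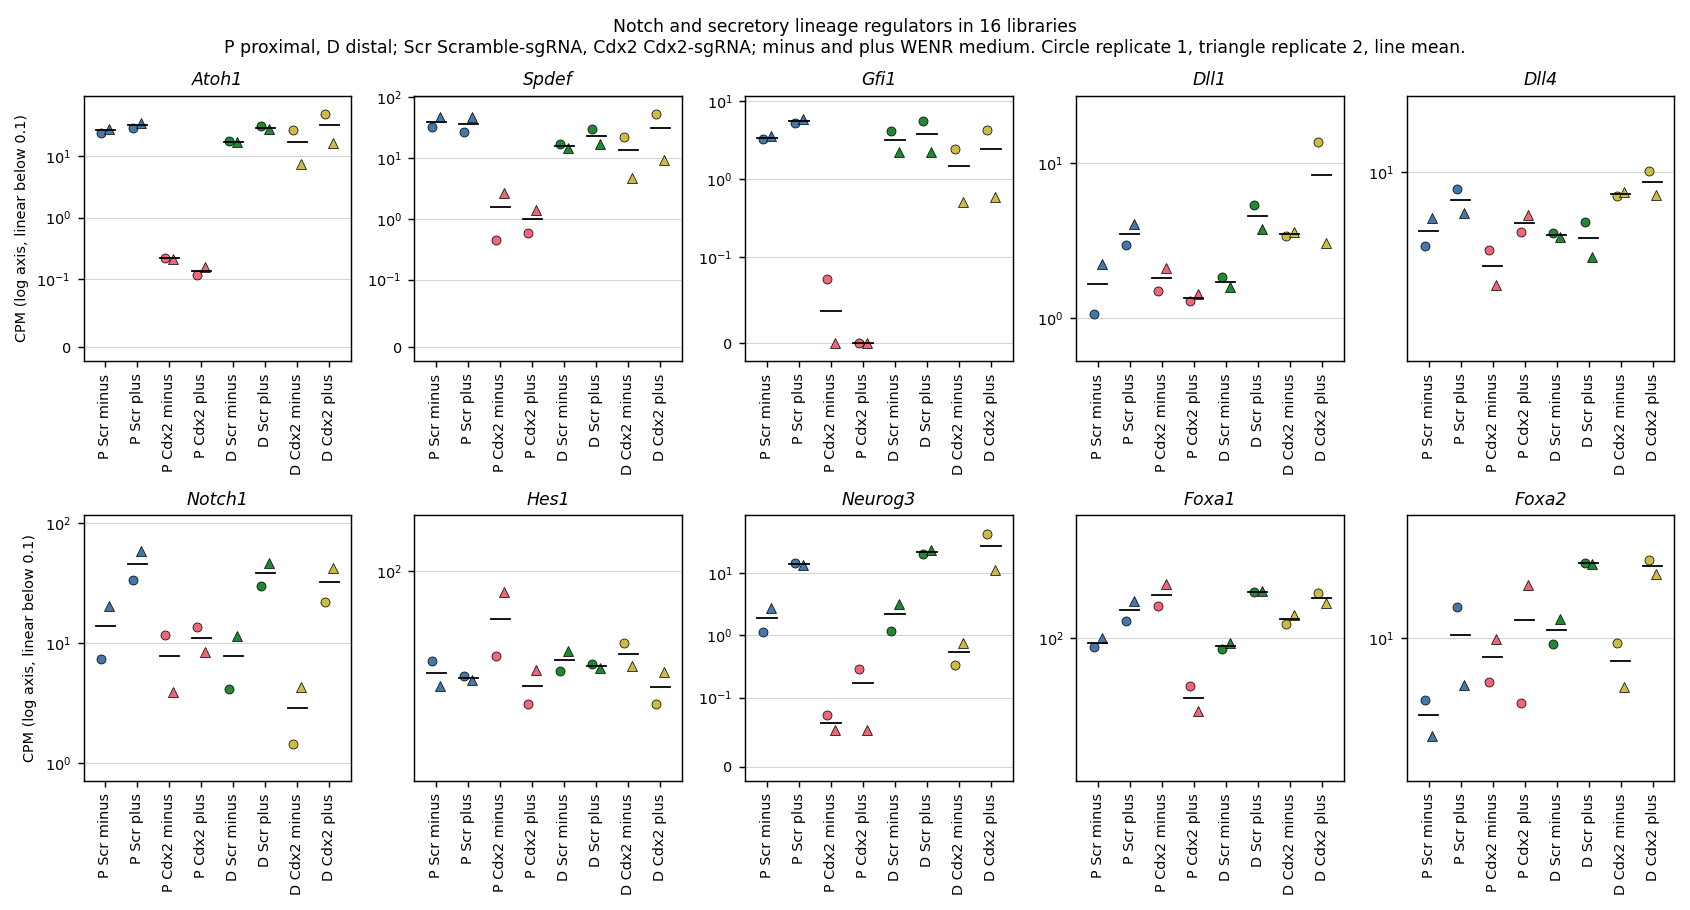
CPM of the 10 members in the 16 libraries, on a log axis that is linear below 0.1 in panels that reach 0; a circle is replicate 1, a triangle replicate 2 and a line the group mean. Atoh1, Spdef, Gfi1 and Neurog3 sit lowest in both proximal Cdx2-sgRNA groups, Hes1 stays between 29.9 and 83.2 CPM, and Notch1 and Neurog3 are higher in WENR-plus than in WENR-minus of Scramble-sgRNA organoids.

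The first question was what the Cdx2 guide does to these regulators in proximal organoids. Atoh1, Spdef, Gfi1 and Neurog3 were all lower with Cdx2-sgRNA in both media, with Atoh1, Gfi1 and Neurog3 down to at most 5 reads per library. Foxa1 was lower in WENR-plus and, with a change of less than 1 on the log2 scale, higher in WENR-minus. By edgeR over all 16 libraries no call was made for the ligands Dll1 and Dll4, the receptor Notch1 or the target Hes1, and Notch1 in WENR-plus was called under several alternatives given with its values. Of the 10 members, 4 were called in WENR-minus and 5 in WENR-plus, each of them lower. A member counts as called where the adjusted p lies under 0.05 and the log2 fold change exceeds 1 in size. Over all 15289 genes tested, 21.2% were called in WENR-minus and 15.9% in WENR-plus. In bulk RNA, fewer cells of a type and less RNA per cell cannot be told apart.

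Atoh1 (chromosome 6, 64729125 to 64731245 of GRCm38, plus strand) commits progenitors to the secretory fates. In WENR-minus its CPM was 24.4 and 28.3 in the proximal Scramble-sgRNA libraries and 0.223 and 0.211 in the Cdx2-sgRNA libraries, where it held 3 and 4 reads. In WENR-plus it was 29.1 and 35.2 against 0.116 and 0.159, from 2 and 3 reads. All 4 edited libraries lay far under every other library of the series. Atoh1 was 123-fold lower in WENR-minus (95% exact interval for counting error 59.3 to 306; adjusted p = 8.08e-05) and 230-fold lower in WENR-plus (98.3 to 710; adjusted p = 7.83e-05). These intervals, and the others of this kind, cover counting error only and not the spread between cultures.

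Spdef (chromosome 17, 27714352 to 27728955, minus strand), an ETS factor of goblet cell maturation, kept some reads. In WENR-minus it was 32.3 and 46.9 CPM with Scramble-sgRNA and 0.445 and 2.64 CPM with Cdx2-sgRNA, or 522 and 900 against 6 and 50 reads. In WENR-plus the levels were 26.6 and 46.6 against 0.580 and 1.38 CPM. The groups did not overlap in either medium. Its log2 fold change was −4.61 (adjusted p = 0.00526, SE 1.00) in WENR-minus and −5.20 (adjusted p = 0.00474, SE 1.05) in WENR-plus. Replicate 2 of the proximal Cdx2-sgRNA cultures held more Spdef than replicate 1 in WENR-minus on either scale. In WENR-plus, where these libraries held 10 and 26 reads, the order turned with the scale, with 1.82 TPM in replicate 1 and 1.17 TPM in replicate 2. Without replicate 2 of the edited group the WENR-minus value was −6.46 and without replicate 1 it was −3.87, and in WENR-plus it was −5.96 without replicate 2, all still called.

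Gfi1 (chromosome 5, 107716657 to 107726036, minus strand), a zinc finger repressor needed by goblet and Paneth cells, had 53 and 68 reads in proximal Scramble-sgRNA WENR-minus libraries and 1 and 0 reads with Cdx2-sgRNA. In WENR-plus it had 109 and 100 reads against 0 and 0. The WENR-minus ratio was 111-fold lower (95% exact interval 19.5 to 4416; adjusted p = 0.00642), and the call was lost without replicate 2 of the Cdx2-sgRNA group (adjusted p = 0.0612). Against a floor of 3 counts over the group, Gfi1 was at least 66.6-fold lower in WENR-plus (adjusted p = 0.00307).

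Neurog3 (chromosome 10, 62133090 to 62134763, plus strand) is the factor that starts enteroendocrine differentiation. In WENR-minus it held 18 and 52 reads with Scramble-sgRNA and 1 and 1 with Cdx2-sgRNA, which is 32.1-fold lower (95% exact interval 8.55 to 270.1; adjusted p = 0.00658). That call was lost without replicate 2 of the edited group (adjusted p = 0.0657). In WENR-plus it held 301 and 229 reads against 5 and 1, or 14.4 and 13.6 CPM against 0.290 and 0.0529 CPM. This is 84.4-fold lower (38.5 to 231; adjusted p = 0.000576). Neurog3 overlaps Fam241b on the other strand, and the library kit keeps strand.

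Foxa1 (chromosome 12, 57540628 to 57546916, minus strand), a pioneer factor of the endoderm, moved in opposite directions in the 2 media. In WENR-minus it was 91.5 and 100.4 CPM with Scramble-sgRNA and 138.7 and 171.9 CPM with Cdx2-sgRNA, a log2 fold change of 0.69 (adjusted p = 0.0074, SE 0.16). In WENR-plus it was 119.7 and 145 CPM against 61.9 and 48.1 CPM, a log2 fold change of −1.27 (adjusted p = 0.000337, SE 0.16). No library of a guide overlapped those of the other guide in either medium. Its close relative Foxa2 (chromosome 2, 148042877 to 148046969, minus strand) was spread widely between replicates of the same group: 16.1 and 4.79 CPM with Scramble-sgRNA and 3.60 and 22.8 CPM with Cdx2-sgRNA in WENR-plus. In WENR-minus the guides did not overlap for Foxa2, with 3.78 and 2.14 against 4.97 and 9.78 CPM, a log2 fold change of 1.33 (adjusted p = 0.219, SE 0.78). That value ran from 0.745 to 1.83 without 1 library and was called without the filter on low counts (1.36, adjusted p = 0.000137). The unfiltered fit holds the same Foxa2 reads, so its smaller p does not come from closer replicates.

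Among the signaling components, Notch1 (chromosome 2, 26457903 to 26516663, minus strand) stood at 33.7 and 58.2 CPM in proximal Scramble-sgRNA and at 13.6 and 8.51 CPM in Cdx2-sgRNA organoids in WENR-plus. The groups did not overlap, and the log2 fold change of −2.05 (SE 0.70, 95% interval −3.58 to −0.53) had an adjusted p of 0.0512. Notch1 was called there by DESeq2 (−2.01, adjusted p = 0.0149), with the groups compared alone (−1.99, adjusted p = 0.0285), with at least 10 counts in every library (adjusted p = 0.042) and without the filter on low counts (adjusted p = 7.68e-12). The unfiltered fit holds the same Notch1 reads, so its far smaller p comes from fitting more genes and not from closer replicates. In WENR-minus the ranges overlapped, with 7.37 and 20.3 against 11.8 and 3.97 CPM. Dll1 (chromosome 17, 15367354 to 15376872, minus strand), a ligand, was 2.96 and 4.02 against 1.28 and 1.43 CPM in WENR-plus, a log2 fold change of −1.36 (adjusted p = 0.12, SE 0.60). Dll4 (chromosome 2, 119325784 to 119335962, plus strand) lay between 3.54 and 8.55 CPM in all 8 proximal libraries. Hes1 (chromosome 16, 30064384 to 30067796, plus strand), the repressor of Atoh1, was 44.3 and 35.4 CPM with Scramble-sgRNA and 46.2 and 83.2 CPM with Cdx2-sgRNA in WENR-minus. That difference was 0.70 on the log2 scale (adjusted p = 0.0647, SE 0.26). Without replicate 1 of the edited group, whose 46.2 CPM lay near the controls, it was 1.09 (adjusted p = 0.00949).

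In distal organoids none of the 10 members was called for the same guide in either medium. By edgeR 2 members had an unadjusted p under 0.05 in WENR-minus and 1 in WENR-plus, and DESeq2 also called 0 in both. Without the filter on low counts edgeR called 2 members in WENR-minus. Over all genes, 5.25% were called in WENR-minus and 0.262% in WENR-plus. Atoh1 in distal WENR-minus was 17.5 and 16.8 CPM with Scramble-sgRNA and 26.5 and 7.53 CPM with Cdx2-sgRNA, so both control libraries lay between the edited ones. Its log2 fold change was −0.013 (95% interval −1.14 to 1.11). In WENR-plus it was 31.0 and 28.0 against 48.8 and 16.8 CPM, with a log2 fold change of 0.15 (95% interval −0.94 to 1.25). Spdef gave −0.21 (95% interval −2.07 to 1.64) and 0.42 (95% interval −1.39 to 2.23). Without distal Cdx2-sgRNA replicate 2 the WENR-minus values were 0.62 for Atoh1 and 0.50 for Spdef, and without replicate 1 the WENR-plus values were −0.81 and −1.32. For Atoh1 and Spdef the full intervals exclude declines of the size seen in proximal organoids. They leave room for changes of 2-fold in either direction, except that the Atoh1 interval in WENR-plus stops just short of a 2-fold decline. Gfi1 averaged 3.19 CPM with Scramble-sgRNA against 1.48 CPM in distal WENR-minus, and 3.86 against 2.41 CPM in WENR-plus, with overlap in both. Without 1 library its log2 fold change ran from −2.65 to −0.38 in WENR-minus and from −2.70 to 0.18 in WENR-plus.

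The 2 distal Cdx2-sgRNA cultures were unlike each other. Replicate 1 held more Atoh1, Spdef and Gfi1 than replicate 2 in both media: 26.5 against 7.53, 22.3 against 4.77 and 2.45 against 0.502 CPM in WENR-minus, and 48.8 against 16.8, 52.9 against 9.26 and 4.24 against 0.582 CPM in WENR-plus. Neurog3 (42.1 against 11.3 CPM) and Dll1 (13.8 against 3.07 CPM) followed the same order in WENR-plus, whereas Neurog3 was 0.338 against 0.753 CPM in WENR-minus. Even the lower replicate held 90 and 317 reads of Atoh1, against at most 4 in any proximal edited library. Neurog3 in distal WENR-minus was 1.15 and 3.23 CPM with Scramble-sgRNA against 0.338 and 0.753 CPM, a log2 fold change of −1.995 (adjusted p = 0.149, SE 0.81). The Cdx2-sgRNA levels of Neurog3 rest on only 4 and 9 reads. Dll4 in distal WENR-plus was 6.31 and 4.57 against 10.1 and 8.09 CPM, a log2 fold change of 0.74 (adjusted p = 0.533, SE 0.26).

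**Figure D2:**
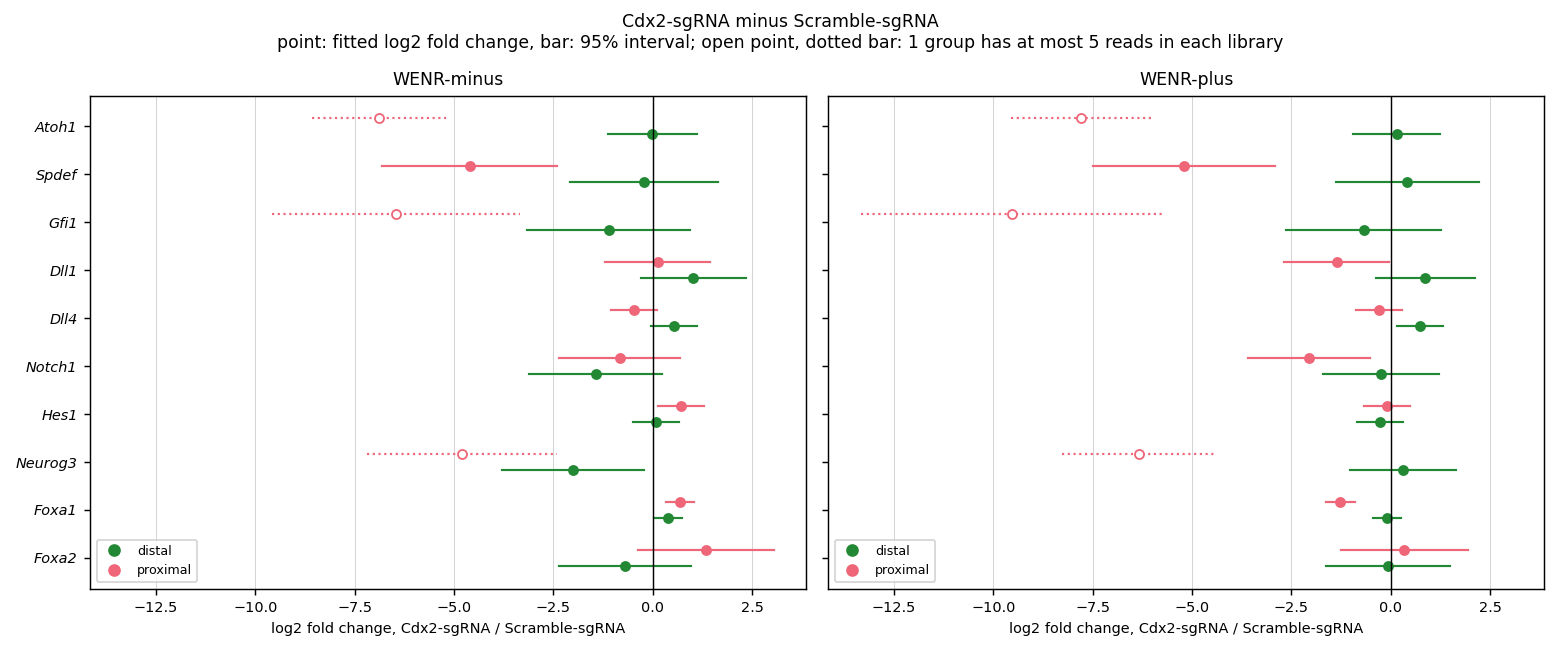
Fitted log2 fold change of Cdx2-sgRNA over Scramble-sgRNA for each member (x axis) with its 95% interval, in proximal (red) and distal (green) organoids and in each medium; open points with dotted bars have 1 group with at most 5 reads per library, where the fitted value depends on the prior count. The proximal points of Atoh1, Spdef, Gfi1 and Neurog3 lie left of −4 in both media, and the distal bars of Atoh1 and Spdef span 0.

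Whether the effect of the guide differed between regions was tested directly as a difference of the log2 fold changes. The members called were Atoh1 and Spdef in WENR-minus, and Atoh1, Spdef, Gfi1, Neurog3 and Foxa1 in WENR-plus, all more negative in proximal than in distal organoids. These are 2 and 5 of 10, where 14.3% and 4.98% of all genes were called. For Spdef the proximal minus the distal effect was −4.39 (adjusted p = 0.0379, SE 1.29) in WENR-minus and −5.62 (adjusted p = 0.0309, SE 1.32) in WENR-plus. The calls on Spdef were lost without any of 6 of the 8 libraries in WENR-minus and 7 of the 8 in WENR-plus, with values from −6.24 to −2.90 and from −6.39 to −3.84. The adjusted p for Atoh1 was 0.000749 in WENR-minus and 0.000827 in WENR-plus, and it was at most 0.00808 without any single library. In WENR-plus it was 0.00493 for Neurog3 (at most 0.0291 without any single library) and 0.0329 for Gfi1, for which it rose to between 0.0739 and 0.108 without any of 6 of the 8 libraries. In WENR-minus the adjusted p for Gfi1 was 0.0615 and Neurog3 was not called, so a difference between regions was not shown for either gene there. Foxa1 differed by −1.18 (adjusted p = 0.0122, SE 0.23) in WENR-plus and by 0.31 (adjusted p = 0.371, SE 0.23) in WENR-minus. The WENR-plus call on Foxa1 was lost without distal Cdx2-sgRNA replicate 1 (−1.08, adjusted p = 0.0598) or proximal Scramble-sgRNA replicate 2 (−1.03, adjusted p = 0.057). Fitted on the groups compared alone, the WENR-plus calls on Spdef (adjusted p = 0.0561), Gfi1 (0.0839) and Foxa1 (0.0534) were lost as well.

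The second question was how the niche factors change these genes. Neurog3 and Notch1 had higher levels in WENR-plus than in WENR-minus in the Scramble-sgRNA organoids of both regions and in distal Cdx2-sgRNA organoids, although the proximal Scramble-sgRNA value of Notch1 did not pass the test. Foxa1 fell in proximal Cdx2-sgRNA organoids, against higher levels in WENR-plus in the other cultures. The members called were 1 in proximal Scramble-sgRNA, 1 in proximal Cdx2-sgRNA, 2 in distal Scramble-sgRNA and 3 in distal Cdx2-sgRNA organoids. All genes were called at 17%, 6.4%, 26.4% and 33.1% in these comparisons. With each culture as a block, since both media of a culture deviated together, the counts were 3, 1, 4 and 5, and all genes were then called at 21.3%, 10.1%, 30.3% and 36.5%. For 10 members, the counts of both fits lay near the background.

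Neurog3 went from 1.11 and 2.71 CPM in WENR-minus to 14.4 and 13.6 CPM in WENR-plus in proximal Scramble-sgRNA organoids, a log2 fold change of 2.85 (adjusted p = 0.00936, SE 0.68). The call was lost without WENR-minus replicate 1 (2.34, adjusted p = 0.0918), and the value was 3.58 without WENR-minus replicate 2. In distal Scramble-sgRNA organoids it went from 1.15 and 3.23 to 20.1 and 23.3 CPM, which is 3.30 on the log2 scale (adjusted p = 0.00287, SE 0.69), or 4.22 without WENR-minus replicate 2. In distal Cdx2-sgRNA organoids it went from 0.338 and 0.753 to 42.1 and 11.3 CPM, a log2 fold change of 5.59 (adjusted p = 0.000194, SE 0.81). The WENR-minus levels there rest on only 4 and 9 reads, so the size is poorly known. Leaving out 1 library gave 4.29 to 6.23 there, lowest without WENR-plus replicate 1. The groups did not overlap in any of these 3 cultures. In proximal Cdx2-sgRNA organoids it stayed at 1 to 5 reads in both media, too few for a comparison.

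Notch1 stood at 4.16 and 11.5 CPM in WENR-minus and 30.0 and 46.8 CPM in WENR-plus of distal Scramble-sgRNA organoids, a log2 fold change of 2.29 (adjusted p = 0.0235, SE 0.71). The call was lost without WENR-minus replicate 1 (1.74, adjusted p = 0.168), without WENR-plus replicate 2 (1.84, adjusted p = 0.128), and with length-scaled counts (adjusted p = 0.0564). Without WENR-minus replicate 2 the value was 3.21. In distal Cdx2-sgRNA organoids it went from 1.44 and 4.35 to 22.3 and 42.7 CPM, a log2 fold change of 3.48 (adjusted p = 0.00318, SE 0.78), with 2.90 and 4.43 without WENR-minus replicate 1 and 2. In proximal Scramble-sgRNA organoids it went from 7.37 and 20.3 to 33.7 and 58.2 CPM, or 1.73 (adjusted p = 0.0807, SE 0.69), and was called with the culture block (adjusted p = 0.000511). In proximal Cdx2-sgRNA organoids the ranges overlapped, with 11.8 and 3.97 against 13.6 and 8.51 CPM and a log2 fold change of 0.50 (95% interval −1.02 to 2.03). The effect of WENR-plus on Notch1 was not shown to differ between guides in proximal organoids (difference −1.23, 95% interval −3.35 to 0.90, adjusted p = 0.523).

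Foxa1 in proximal Cdx2-sgRNA organoids was 138.7 and 171.9 CPM in WENR-minus and 61.9 and 48.1 CPM in WENR-plus, a log2 fold change of −1.498 (adjusted p = 0.000879, SE 0.16). With the 4 libraries alone the call was lost (−1.504, adjusted p = 0.122). In proximal Scramble-sgRNA organoids it was 91.5 and 100.4 against 119.7 and 145 CPM (log2 fold change 0.46, SE 0.16, adjusted p = 0.0494), and in distal Scramble-sgRNA organoids 90.3 and 96.0 against 158.8 and 160.4 CPM (0.78, SE 0.16, adjusted p = 0.00274). In distal Cdx2-sgRNA organoids the change was 0.31 (adjusted p = 0.135, SE 0.16). WENR-minus and WENR-plus libraries did not overlap in any of the 4 cultures. The difference of the WENR-plus effects between guides was −1.96 (adjusted p = 0.00428, SE 0.23) in proximal organoids, with 1 of 10 members called against 3.6% of all genes. In distal organoids that difference was −0.47 (adjusted p = 0.538, SE 0.23). No member was called there (1 with an unadjusted p under 0.05, 0 by DESeq2), and 0% of all genes were called.

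Foxa2 was higher in WENR-plus of distal Cdx2-sgRNA organoids, with 9.22 and 4.60 CPM against 34.0 and 27.2 CPM and a log2 fold change of 2.15 (adjusted p = 0.0378, SE 0.77). This call was lost without any of the 4 libraries, with values from 1.68 to 2.73 and adjusted p from 0.0653 to 0.219. In distal Scramble-sgRNA organoids it was 9.08 and 13.5 against 32.2 and 31.8 CPM (1.505, SE 0.74, adjusted p = 0.128; 0.00451 with the culture block). In proximal Scramble-sgRNA organoids it was 3.78 and 2.14 against 16.1 and 4.79 CPM (1.83, SE 0.78, adjusted p = 0.102; 0.00757 with the culture block).

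Among the other members, Dll1 in distal Scramble-sgRNA organoids was 1.85 and 1.58 CPM in WENR-minus and 5.41 and 3.76 CPM in WENR-plus (log2 fold change 1.42, SE 0.60, adjusted p = 0.0802; 0.0377 with the culture block). In distal Cdx2-sgRNA organoids Atoh1 changed by 0.95 (adjusted p = 0.151, SE 0.51) and Spdef by 1.201 (adjusted p = 0.269, SE 0.85), and the culture block gave adjusted p of 0.000204 and 0.00127. The medium values of Atoh1 there also rested on single libraries: without WENR-minus replicate 1 the log2 fold change was 2.12 (adjusted p = 0.00827), without WENR-plus replicate 2 it was 1.49 (adjusted p = 0.0324), and without WENR-plus replicate 1 it was −0.085. Dll1 there changed by 1.27 (adjusted p = 0.0954, SE 0.58), and by 1.94 (adjusted p = 0.00663) without WENR-plus replicate 2. Hes1 in proximal Cdx2-sgRNA organoids was 46.2 and 83.2 against 29.9 and 40.8 CPM (−0.88, SE 0.27, adjusted p = 0.0506), and −1.27 (adjusted p = 0.0149) without WENR-minus replicate 1. The levels of Hes1 in Scramble-sgRNA organoids lay between 35.4 and 48.7 CPM in both media and regions.

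**Figure D3:**
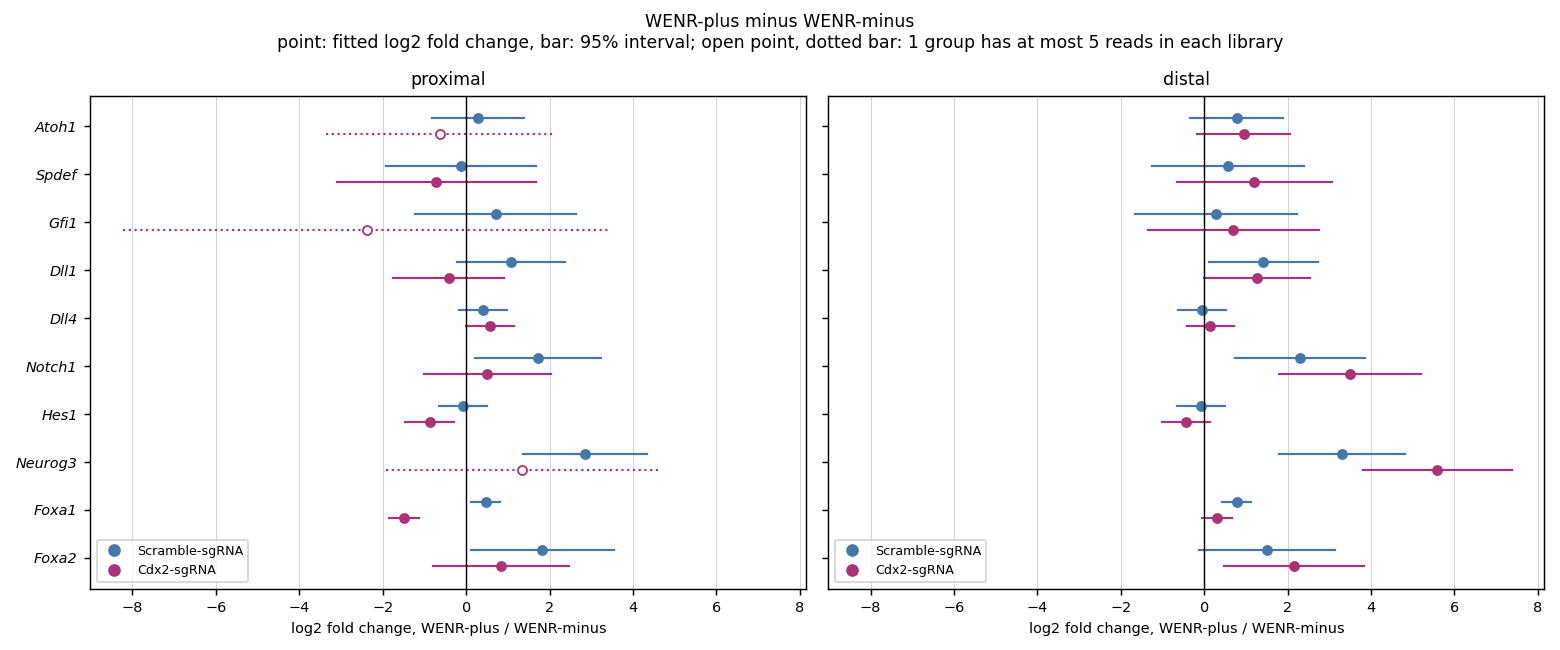
Fitted log2 fold change of WENR-plus over WENR-minus for each member (x axis) with its 95% interval, by region and guide; open points with dotted bars have a group with at most 5 reads per library. In proximal organoids Foxa1 lies at 0.46 with Scramble-sgRNA and at −1.498 with Cdx2-sgRNA, and Neurog3 lies right of 2 in the other 3 cultures.

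The third question was whether the regulators differ between proximal and distal colon. In Scramble-sgRNA organoids 0 of the 10 members were called in either medium by edgeR. At an unadjusted p under 0.05 there was 1 member in WENR-minus and 0 in WENR-plus, and DESeq2 called 1 and 0. All genes were called at 6.08% and 1.75%. Foxa2 was lower in proximal organoids on the scale of the fit, with −1.94 (adjusted p = 0.146, SE 0.79) in WENR-minus and −1.61 (adjusted p = 0.355, SE 0.74) in WENR-plus. DESeq2 put Foxa2 under the threshold in WENR-minus (−1.98, adjusted p = 0.0486). Spdef in WENR-minus was 32.3 and 46.9 CPM in proximal and 16.9 and 14.5 CPM in distal organoids, without overlap (1.34, SE 0.84, adjusted p = 0.343). Whether the region effect changed with the medium was also tested, and no member was called (0 with an unadjusted p under 0.05, 0 by DESeq2), with 0.0719% of all genes.

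In Cdx2-sgRNA organoids the regions differed at 3 members in WENR-minus (Atoh1, Spdef and Gfi1) and at 6 in WENR-plus (with Dll1, Neurog3 and Foxa1 added), all lower in proximal organoids. The share of all genes called was 34.6% in WENR-minus and 17% in WENR-plus, so that the WENR-minus count lay near the background. Atoh1 was 78.4-fold lower in WENR-minus (95% exact interval 37.7 to 196) and 232-fold lower in WENR-plus (99.4 to 717). The log2 fold change of Spdef was −3.05 (adjusted p = 0.0222, SE 0.97) without and −4.97 (adjusted p = 0.00516, SE 1.04) with the niche factors. In WENR-minus the call on Spdef was lost without proximal replicate 1 (−2.34), without distal replicate 1 (−1.56) and in the fit of these groups alone (adjusted p = 0.0702). There its values were −4.92 without proximal replicate 2 and −3.79 without distal replicate 2, and in WENR-plus −3.18 without distal replicate 1, −5.73 without distal replicate 2 and −5.73 without proximal replicate 2. Gfi1 was 47.7-fold lower in WENR-minus (8.01 to 1936), a call lost without distal replicate 1 (adjusted p = 0.115) or proximal replicate 2 (adjusted p = 0.0959), and at least 28.2-fold lower in WENR-plus. Neurog3 was 157-fold lower in WENR-plus (72.0 to 430; adjusted p = 0.000238). Dll1 in WENR-plus was 1.28 and 1.43 CPM in proximal and 13.8 and 3.07 CPM in distal organoids, a log2 fold change of −2.63 (adjusted p = 0.00874, SE 0.61). Without distal replicate 1 that value was −1.14 (adjusted p = 0.144), with length-scaled counts −2.09 (adjusted p = 0.0738), in the fit of these groups alone −2.59 (adjusted p = 0.0883), without distal replicate 2 it was −3.34, and without proximal replicate 2 the adjusted p was 0.0529. Foxa1 differed by −1.45 (adjusted p = 0.00013, SE 0.16). Dll4 in WENR-minus was 4.90 and 3.54 CPM against 8.04 and 8.36 CPM, with −0.96 (adjusted p = 0.0113, SE 0.27), under the fold threshold, and −1.21 (adjusted p = 0.0134) without proximal replicate 1. The comparisons of guides and of regions share libraries, so these values repeat part of the guide effects.

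Ordered by mean level, the groups of Atoh1 ran from distal Cdx2-sgRNA WENR-plus (32.8 ± 22.7 CPM, SD, n = 2) and proximal Scramble-sgRNA WENR-plus (32.2 ± 4.32) down to the proximal Cdx2-sgRNA groups (0.217 ± 0.00792 and 0.137 ± 0.0301). The 4 highest groups each overlapped with the next of them, and the step from distal Cdx2-sgRNA WENR-minus (17.0 ± 13.4) to the proximal edited groups did not overlap. Foxa1 ran from 159.6 ± 1.13 CPM in distal Scramble-sgRNA WENR-plus to 55.0 ± 9.81 in proximal Cdx2-sgRNA WENR-plus, which lay apart from the next group. Notch1 had its 3 highest means in WENR-plus groups, at 46.0 ± 17.3, 38.4 ± 11.9 and 32.5 ± 14.4 CPM, and proximal Cdx2-sgRNA WENR-plus came after proximal Scramble-sgRNA WENR-minus with 11.1 ± 3.62. For Hes1 every group overlapped with the next, from 64.8 ± 26.2 to 35.0 ± 7.07 CPM.

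The rest of the Notch pathway was read from a list of 34 genes, of which 28 had enough counts. The 6 that did not were the ligand Dll3, the fringe enzyme Mfng and the targets Hes5, Hey1, Hey2 and Heyl, with at most 8 reads in any library. In proximal organoids Cdx2-sgRNA raised 7 and lowered 3 of the 28 in WENR-minus, and raised 2 and lowered 1 in WENR-plus, beside 21.2% and 15.9% of all genes called in either direction. The median log2 fold change of the list was 0.163 in WENR-minus and −0.0516 in WENR-plus, beside −0.000325 and −0.0495 over all genes. The gene of this list that moved furthest in both media was the receptor Notch3, which had 3 and 5 reads with Scramble-sgRNA and 300 and 460 with Cdx2-sgRNA in WENR-minus (adjusted p = 0.000136). In WENR-plus it had 14 and 41 against 455 and 427 reads, a log2 fold change of 4.00 (adjusted p = 0.00162, SE 0.66). Notch2 was 14.3 and 16.8 against 68.8 and 46.5 CPM in WENR-minus (1.89, SE 0.36, adjusted p = 0.00231) and 18.0 and 17.2 against 43.5 and 35.8 CPM in WENR-plus (1.17, SE 0.35, adjusted p = 0.0317). The ligands Jag1 (1.43, SE 0.28, adjusted p = 0.00318) and Jag2 (1.02, SE 0.33, adjusted p = 0.0378) rose in WENR-minus. So did Numbl (3.60, SE 0.87), a relative of the Notch inhibitor Numb, and the coactivator Maml2 (2.23, SE 0.39). Hes6, a relative of Hes1 that is also on the list of secretory factors below, fell by 1.1 on the log2 scale (adjusted p = 0.00306, SE 0.20) in WENR-plus.

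In distal organoids Cdx2-sgRNA raised 2 and lowered 1 of the 28 in WENR-minus: Notch2 (1.40, SE 0.38, adjusted p = 0.0422) and Maml2 (2.11, SE 0.43) rose, and Lfng, a glycosyltransferase that modifies Notch receptors, changed by −1.97 (adjusted p = 0.0188, SE 0.43). In WENR-plus edgeR called 0 of them (4 with an unadjusted p under 0.05, 0 by DESeq2). Over all genes, 5.25% were called in distal WENR-minus and 0.262% in distal WENR-plus. The guide effect differed between regions at Notch3 (adjusted p = 0.00473), Lfng (2.97, SE 0.56) and Jag1 (1.57, SE 0.41, adjusted p = 0.0247) in WENR-minus, 3 of the 5 called there. In WENR-plus edgeR called none of the 28 for that difference, with 8 at an unadjusted p under 0.05 and 2 called by DESeq2. All genes were called for it at 14.3% in WENR-minus and 4.98% in WENR-plus, so the WENR-minus count of the list lay near the background. Between regions in Scramble-sgRNA WENR-minus organoids, Notch2 (1.93, SE 0.38), Maml2 (1.62, SE 0.42) and Jag1 (1.39, SE 0.29) were higher and the receptor Notch4 lower (−2.42, SE 0.49) in proximal organoids.

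Of these 28 genes WENR-plus raised 3 and lowered 2 in proximal Scramble-sgRNA, 5 and 5 in distal Scramble-sgRNA, 0 and 1 in proximal Cdx2-sgRNA, and 7 and 5 in distal Cdx2-sgRNA organoids, where all genes were called at 17%, 26.4%, 6.4% and 33.1%. Lfng rose in the Scramble-sgRNA organoids of both regions (1.85, SE 0.36, and 2.19, SE 0.37) and in distal Cdx2-sgRNA organoids (3.65, SE 0.43). In distal Scramble-sgRNA organoids Maml2 rose by 3.13 (SE 0.43), Notch2 by 2.01 (SE 0.38), Jag1 by 1.503 (SE 0.29) and Jag2 by 1.14 (SE 0.33). In distal Cdx2-sgRNA organoids Notch3 rose by 3.27 (SE 0.72), Notch2 by 1.16 (SE 0.36), Jag1 by 1.11 (SE 0.30) and Jag2 by 1.04 (SE 0.34), and Numb changed by −2.08 (SE 0.12). Among the called members of proximal Scramble-sgRNA organoids, Jag2 rose by 1.00 (adjusted p = 0.042, SE 0.33), Notch3 went from 3 and 5 to 14 and 41 reads (adjusted p = 0.0263), and Aph1a, a subunit of the receptor-cleaving gamma-secretase, changed by −1.24 (SE 0.19).

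**Figure D4:**
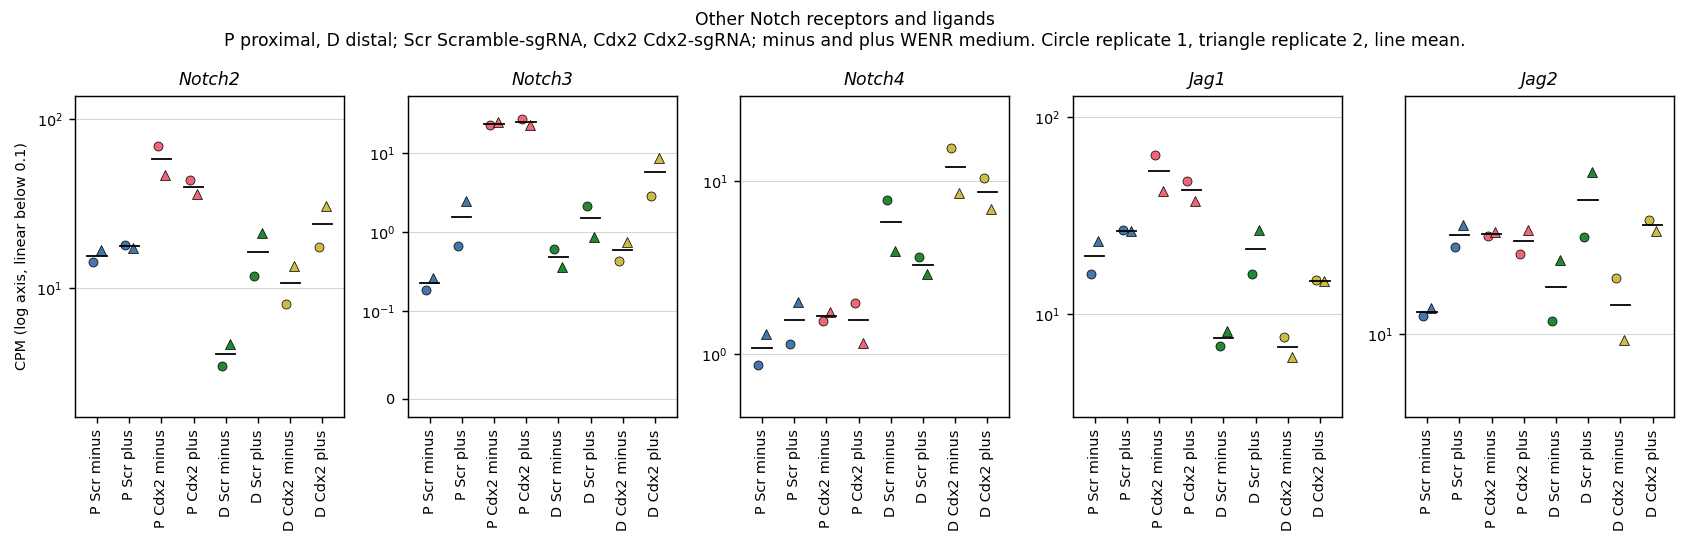
CPM of the receptors Notch2, Notch3 and Notch4 and of the ligands Jag1 and Jag2 in the 16 libraries (log axis, linear below 0.1 in the Notch3 panel; circle replicate 1, triangle replicate 2, line mean). The proximal Cdx2-sgRNA libraries hold the most Notch2, Notch3 and Jag1, and Notch4 is higher in the distal libraries than in the proximal ones.

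A second list held 23 other factors of secretory differentiation, of which 21 were tested. In proximal organoids Cdx2-sgRNA lowered 10 of them in WENR-minus and 12 in WENR-plus, where 21.2% and 15.9% of all genes were called, with a list median of −1.64 and −2.68, beside −0.000325 and −0.0495 over all genes. The enteroendocrine factor Neurod1, a target of Neurog3, had 50 and 69 reads with Scramble-sgRNA and 0 and 1 with Cdx2-sgRNA in WENR-minus (adjusted p = 0.000264), and 90 and 75 against 1 and 0 in WENR-plus (adjusted p = 0.000242). Rfx6 had 27 and 25 against 0 and 1 reads in WENR-minus, and 74 and 64 against 0 and 1 in WENR-plus. Pax4 had 4 and 34 against 0 and 0 reads, and 44 and 31 against 0 and 0. The 1 factor called higher was Xbp1, a regulator of the secretory apparatus, in WENR-plus (1.72, SE 0.26, adjusted p = 0.000934), named here after its values were seen. In distal organoids edgeR called 0 of the 21 in either medium, with 3 at an unadjusted p under 0.05 in WENR-minus and 0 in WENR-plus, and DESeq2 called 0. The difference between regions was called at 6 factors in WENR-minus, all more negative in proximal organoids, and at 9 in WENR-plus, 8 of them more negative. All genes were called for that difference at 14.3% in WENR-minus and 4.98% in WENR-plus.

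For the medium, the share of this list that was called lay near or below that of all genes, except in proximal Cdx2-sgRNA organoids. WENR-plus raised 3 and lowered 1 in proximal Scramble-sgRNA, 4 and 1 in distal Scramble-sgRNA, 2 and 1 in proximal Cdx2-sgRNA and 4 and 1 in distal Cdx2-sgRNA organoids, beside 17%, 26.4%, 6.4% and 33.1% of all genes. The factor lowered in all 4 was Klf4, which is known from goblet cells and the upper crypt, with log2 fold changes from −3.55 to −1.86. Sox9, a factor of the crypt base, rose by 2.21 (SE 0.58), 2.97 (SE 0.60), 2.00 (SE 0.58) and 2.79 (SE 0.60) in the same order of cultures. Its levels in Scramble-sgRNA organoids went from 202 to 727 reads in WENR-minus to 2097 to 3233 reads in WENR-plus.

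Products of the goblet and enteroendocrine cells were lower with Cdx2-sgRNA in proximal organoids, as these regulators were. The 10 goblet markers summed to 6452 to 7712 CPM in proximal Scramble-sgRNA WENR-minus and to 182 to 245 CPM in the Cdx2-sgRNA libraries, and in WENR-plus to 915 to 1452 against 45.2 to 83.2 CPM. Of them 9 were called lower in WENR-minus and 7 in WENR-plus. Muc2, the main colonic mucin, held 50 to 86 reads in the 4 proximal edited libraries and at least 723 in every other. The 11 enteroendocrine markers summed to 154 to 244 against 27.3 to 28.0 CPM in WENR-minus and 56.0 to 78.2 against 10.7 to 12 CPM in WENR-plus, with 7 and 5 of 9 tested called lower. In distal organoids no goblet marker was called for the guide by edgeR or DESeq2 (0 with an unadjusted p under 0.05), and 1 enteroendocrine marker was called higher in WENR-minus. Between media the enteroendocrine markers and Neurog3 moved apart in Scramble-sgRNA organoids. In distal Scramble-sgRNA organoids the enteroendocrine sum was 423.9 to 618.5 CPM in WENR-minus and 151.6 to 182.1 CPM in WENR-plus, with 7 of 9 called lower, where Neurog3 rose. The goblet sums in proximal Scramble-sgRNA organoids given above were lower in WENR-plus, with 4 of 10 called lower. There Atoh1 was 24.4 and 28.3 against 29.1 and 35.2 CPM. Spdef averaged 39.6 CPM in WENR-minus and 36.6 CPM in WENR-plus with overlap, and neither gene was called. The tuft cell list went the other way: its 8 genes summed to 1.46 to 1.55 against 7.72 to 8.41 CPM in proximal WENR-minus, and 1.54 to 1.86 against 13.4 to 35.3 CPM in WENR-plus. All 3 tuft genes with enough counts were called higher in WENR-plus and 2 in WENR-minus. In distal WENR-minus the tuft sum was also higher with Cdx2-sgRNA, at 3.76 to 5.08 against 0.932 to 1.46 CPM with 1 gene called, and in distal WENR-plus it was 1.09 to 2.17 against 0.645 to 1.05 CPM. The tuft marker Dclk1 held 38 and 201 reads in proximal Cdx2-sgRNA WENR-plus and 0 to 6 elsewhere. Of the 6 cycling genes 2 were called higher with Cdx2-sgRNA in proximal WENR-minus and 2 lower in WENR-plus, and 1 of the 5 epithelial markers was called lower in WENR-minus. Colonocyte markers were lower at 8 of 10 in WENR-minus and at 4 of 10 in WENR-plus, where 1 was higher. Of 8 stem cell markers 1 was higher and 2 lower in WENR-minus, and 1 higher and 3 lower in WENR-plus. For the guide, all genes were called at 21.2% and 15.9% in proximal and at 5.25% and 0.262% in distal organoids (WENR-minus, WENR-plus). WENR-plus itself raised 7, 7, 5 and 8 of the 8 stem cell markers in proximal Scramble-sgRNA, distal Scramble-sgRNA, proximal Cdx2-sgRNA and distal Cdx2-sgRNA organoids, and 5, 5, 0 and 5 of the 6 cycling genes. For the medium, all genes were called at 17%, 26.4%, 6.4% and 33.1% in that order. The part of cell composition in the changes of the 10 regulators was not tested.

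**Figure D5:**
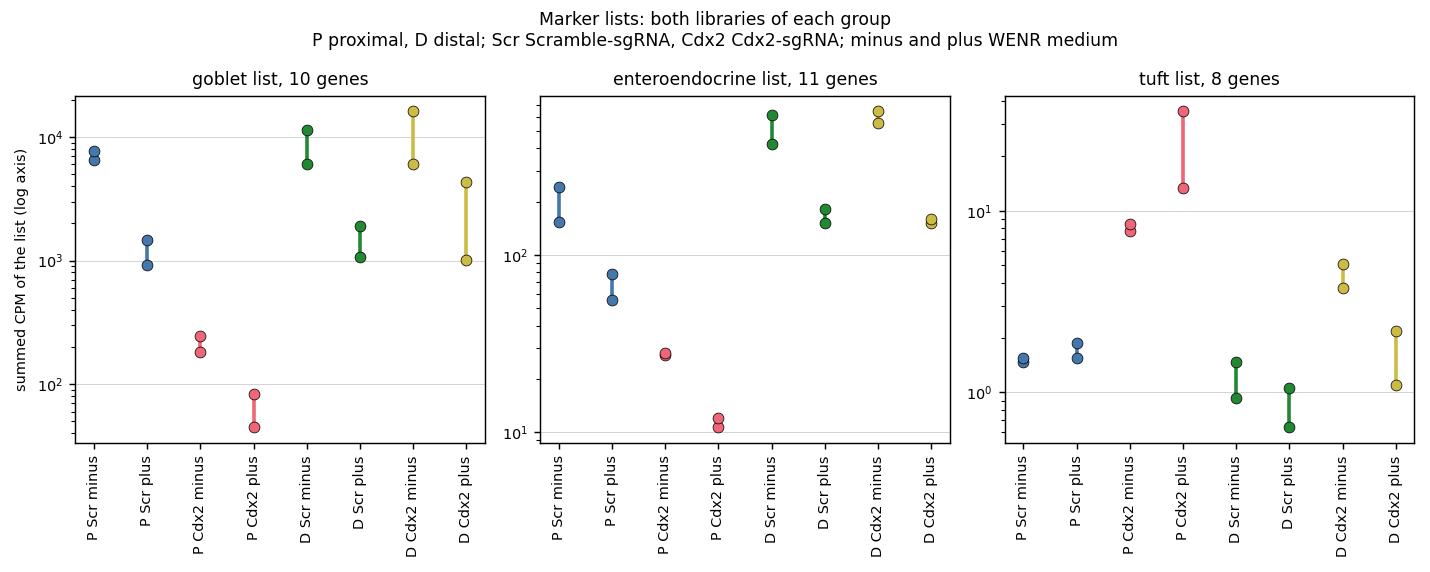
Summed CPM of the goblet, enteroendocrine and tuft marker lists (log axis), with both libraries of a group joined by a bar. In proximal Cdx2-sgRNA libraries the goblet sum is at most 245 CPM and the enteroendocrine sum at most 28.0 CPM, below every other group, while the tuft sum is at least 7.72 CPM.

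Across the 16 libraries, likeness was read as Pearson's r of log2 CPM with each of 9908 genes that averaged at least 5 CPM. It is a description, since the libraries share cultures and groups. Atoh1 was most like Lpcat2 (0.988), Hepacam2 (0.983) and Kctd12 (0.982). Spdef was most like Selenom (0.953), Atoh1 (0.946) and Lpcat2 (0.943). Hpd and Cmah (0.964 each) were among the 3 genes most like Gfi1. Neurog3 was most like Rpia (0.962), Rgcc (0.954) and Nectin1 (0.952), and Notch1 like Rasa3 (0.962), Clasp2 (0.957) and Suv39h2 (0.952). For the rest the nearest genes were further away: Foxa1 with Fbxo45 (0.93), Farp1 (0.904) and Pbrm1 (0.902), Foxa2 with Pdcd4 (0.888), Traf3ip2 (0.874) and Gas6 (0.86), Hes1 with Wbp4 (0.873), D8Ertd738e (0.863) and Gadd45b (0.816), Dll1 with Lrrc31 (0.843), Pter (0.839) and Mrfap1 (0.833), and Dll4 with Lyn (0.813), Tyro3 (0.769) and Itpr1 (0.753). Among the members themselves r was 0.946 for Atoh1 with Spdef, 0.951 for Atoh1 with Gfi1, 0.795 for Atoh1 with Neurog3 and 0.754 for Notch1 with Neurog3. Hes1 gave −0.46 with Neurog3 and −0.51 with Notch1.

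Most members were read from a single main transcript, and 2 were not. Salmon put all 118 Foxa2 reads of distal Scramble-sgRNA WENR-minus replicate 1 on Foxa2-201, while Foxa2-202 held the most Foxa2 reads in the other 15 libraries. Gfi1 reads in distal organoids were divided among transcripts in changing shares. Gfi1-201 and Gfi1-202 held 7.36 and 46.6 Gfi1 reads in 1 Scramble-sgRNA WENR-minus library and 31.0 and 0 in the other, and Gfi1-201 and Gfi1-203 held 38.0 and 36.0 in distal Cdx2-sgRNA WENR-plus replicate 1. These are estimates from few reads, and the sums per gene do not depend on the assignment among transcripts.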

How the data were processed

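RNA of 16 organoid libraries (8 groups of 2) was prepared with a stranded total RNA kit. The authors quantified each library with Salmon 1.1.0 against GENCODE transcripts of mm10, and deposited per transcript an estimated count, a TPM value and an effective length in bases. Replicates were not pooled. Here the estimated counts were summed to 54123 genes by GENCODE names (884 of 140748 transcripts had no match, with 0.257 to 0.510% of counts) and rounded to whole numbers. Genes that passed filterByExpr (15289) were fitted with edgeR 4.0.16 in R 4.3.3 by its quasi-likelihood test, with TMM scaling, 1 coefficient per group, 8 residual degrees of freedom and a prior count of 0.125. The p-values were adjusted by Benjamini-Hochberg over all these genes, for 12 comparisons and 5 differences of effects. TPM was used for levels between genes, and effective lengths for an alternative with length-scaled counts. DESeq2 1.42.0 was another alternative. The scripts were tested on simulated data. One gene among those most like a member is not reported here.

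Where each library of a group held at most 5 reads, the ratio of pooled reads is given with its exact 95% interval, or, at 0 reads, a bound against a floor of 3 counts over the group. The labels number biological replicates without naming an animal, and the methods state 2 independent mice. The p-values measure the spread between these libraries. Replicates differed by more than sampling noise. Both media of a culture share an origin, and their libraries deviated together (r from 0.281 to 0.589 over genes in the 4 cultures), so a fit with the culture as a block stands beside the medium results. All 10 members are named. From the lists of Notch pathway genes, secretory factors and cell markers, the 3 genes of a list with the largest called change in a comparison and any called ligand or receptor are named, besides the genes said to be chosen later. The members and lists were chosen with earlier results of these data known. Promoters came from RefSeq (GRCm38.p6), and gene positions from GENCODE (GRCm38).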

Additional observations from a re-analysis of the deposited data

Results flagged for a closer look

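The results listed here are those in which an effect differed between groups by a test of the difference itself, with Benjamini-Hochberg adjusted p from edgeR over all genes. The change of Atoh1 with Cdx2-sgRNA was more negative in proximal than in distal organoids in WENR-minus (adjusted p = 0.000749) and in WENR-plus (adjusted p = 0.000827). The same held for Spdef, with differences of −4.39 (adjusted p = 0.0379) and −5.62 (adjusted p = 0.0309) on the log2 scale, and in WENR-plus for Gfi1 (adjusted p = 0.0329), Neurog3 (adjusted p = 0.00493) and Foxa1 (−1.18, adjusted p = 0.0122). The proximal edited libraries of Atoh1, Gfi1 and Neurog3 hold at most 5 reads each, so no size is given for these differences. Foxa1 also differed in its response to WENR-plus between guides in proximal organoids, by −1.96 (adjusted p = 0.00428), being higher with WENR-plus in both Scramble-sgRNA libraries and lower in both Cdx2-sgRNA libraries. Cdx2 RNA was itself called lower with Cdx2-sgRNA in proximal organoids in both media and was not called in distal organoids (−0.067 in WENR-minus and −0.36 in WENR-plus), and its part in these differences was not tested.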

How the results depend on the processing

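Of 774 values of the 67 member results that are given with a test, 675 kept direction and side of the threshold under the alternatives, 45 lost a call, 41 gained one and 13 turned sign. Among the 33 called results 333 of 378 values kept their call and none turned sign.

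Counts of members called moved as follows, and unless a value shows it the cause was not tested. Without a fold threshold the medium counts were 2 instead of 1 (proximal Scramble-sgRNA) and 3 instead of 2 (distal Scramble-sgRNA), the proximal guide count in WENR-minus 5 instead of 4 and the region count in Cdx2-sgRNA WENR-minus 4 instead of 3. Without the filter on low counts the medium counts were 3 (proximal Scramble-sgRNA), 4 and 5 (distal Scramble-sgRNA and Cdx2-sgRNA), the guide counts 5 and 6 (proximal WENR-minus and WENR-plus) and 2 (distal WENR-minus), the region counts in Scramble-sgRNA 2 and 1 and in Cdx2-sgRNA 5 and 8, the differences of guide effects 5 and 7, and the differences of medium effects 2 (proximal) and 1 (distal). Requiring 10 counts in every library removed Atoh1, Spdef, Gfi1 and Neurog3 from the test, which left 0 and 2 guide calls in proximal organoids, 0 and 2 region calls in Cdx2-sgRNA, differences of guide effects of 0 and 1, and 1 and 2 medium calls in distal Scramble-sgRNA and Cdx2-sgRNA. Length-scaled counts gave 1 medium call in distal Scramble-sgRNA and 4 and 5 region calls in Cdx2-sgRNA. The groups compared alone gave 0 and 4 medium calls (proximal Cdx2-sgRNA and distal Scramble-sgRNA), 6 guide calls in proximal WENR-plus, 2 region calls in Scramble-sgRNA WENR-minus, 1 and 4 in Cdx2-sgRNA, and 2 for the difference of guide effects in WENR-plus. DESeq2 gave 3 medium calls in proximal Scramble-sgRNA, 6 guide calls in proximal WENR-plus, 1 and 4 region calls in WENR-minus of Scramble-sgRNA and Cdx2-sgRNA, and 3 for the difference of guide effects in WENR-minus. RLE size factors moved no count.

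Leaving out 1 library gave medium counts of 0 to 1, 1 to 2, 1 to 2 and 2 to 4 (proximal Scramble-sgRNA, proximal Cdx2-sgRNA, distal Scramble-sgRNA and distal Cdx2-sgRNA), proximal guide counts of 2 to 5 in WENR-minus and 5 in WENR-plus, region counts in Cdx2-sgRNA of 1 to 3 and 5 to 6, and differences of guide effects of 1 to 3 and 2 to 6. It turned the sign of 85 of 880 values over all 170 results of the 10 members, none of them of a called result, and 10 of these belong to results given with a test. Notch1 gave −0.099 to 1.44 for the medium in proximal Cdx2-sgRNA, negative without WENR-minus replicate 2, and −1.77 to 0.061 for the guide in proximal WENR-minus, positive without Scramble-sgRNA replicate 2. Without distal Cdx2-sgRNA WENR-plus replicate 1 the medium gave −0.085 for Atoh1, −0.61 for Spdef and −0.25 for Dll1 (highest values 2.12, 2.70 and 1.94), and the guide −0.81 for Atoh1 and −1.32 for Spdef (highest 0.77 and 1.23). Without distal Cdx2-sgRNA WENR-minus replicate 2 the guide gave 0.62 for Atoh1 and 0.50 for Spdef (lowest −1.19 and −1.71). The distal WENR-minus guide value of Atoh1, close to 0, was 0.0074 without Scramble-sgRNA replicate 1, 0.0026 with RLE size factors, 0.00081 without the filter and 0.0017 with DESeq2.

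With the culture as a replicate block the medium counts were 3, 1, 4 and 5 in the same order of cultures. The replicate number itself pairs no animals in the labels, and same-numbered libraries had r over 0.1 in 9 of 28 pairs of groups. As a replicate block it gave 6 instead of 5 members for the guide in proximal WENR-plus (Notch1 added, −1.93, adjusted p = 0.0454) and 3 instead of 2 for the difference of guide effects in WENR-minus (Gfi1 added, adjusted p = 0.0278), and changed no other count. Each proximal edited library of Atoh1, Gfi1 and Neurog3 held at most 5 reads, so the sizes of their declines are uncertain at least over the counting intervals given. Those intervals leave out the spread between cultures, which 2 libraries a group measure poorly.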
